A study of Marchantia polymorpha with 6 samples.

Results

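MpACTIN7 (gene ID Mp6g11010) is an actin gene of the liverwort Marchantia polymorpha, and it is 1 of the 19472 genes listed for each library. It was picked by its row in the count files, because its level is high and because actins are in common use as reference transcripts, so its level and rank are given as a description and were not tested. RNA was sequenced from thallus, the flat body of the plant. All thalli carried the genotype label Cam1 and were kept at 21 °C. Half-strength Gamborg plates held 2.5 µM sodium arsenite, which is trivalent arsenic, for 3 libraries, and no arsenite for 3 control libraries. The labels do not say how many plants went into a library or for how long they grew on arsenite, so p-values measure only the spread between these samples. The study's title names ACR3, a transporter of arsenite, and the design asks for transcripts whose levels differ between thalli with and without arsenite. Totals ran from 26579324 to 31573867 reads in arsenite libraries and from 26691102 to 47532310 reads in control libraries.

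Actin monomers assemble into filaments that carry vesicle and organelle transport through myosin motors, and in plants they direct tip growth, as in the rhizoids of a thallus. Plants carry several actin genes that encode near-identical proteins. Because some of these genes are transcribed in most cells, an actin transcript is often used as the denominator in RT-qPCR, where the level of a target is given as its ratio to that transcript. Such a ratio follows the target alone only where the denominator is at one level in both groups.

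MpACTIN7 was higher in thalli grown with arsenite than in control thalli, by 1.65-fold relative to the bulk of genes. It passed the test with edgeR and TMM factors, but did not pass in 11 of 17 alternative analyses. Of the other 2 actin genes with a symbol, MpACT1 also had higher values, which did not pass with edgeR and passed with DESeq2. MpACT2 had slightly lower values. None of 18 other candidate reference transcripts passed the test in either direction with edgeR and TMM factors, where 4.18% of all tested genes passed. Taken as the only scaling, MpACTIN7 moved the median log2 fold change of all tested genes to -0.73.

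The MpACTIN7 row held 49409, 55541 and 40773 reads in arsenite replicates 1, 2 and 3, against 50259, 23797 and 35138 reads in control replicates 1, 2 and 3. These are 0.156%, 0.188% and 0.153% of all reads with arsenite, against 0.106%, 0.0892% and 0.112% in controls. The raw counts of the groups overlapped, while the shares of the library did not. Counting error was 0.424% to 0.495% of the count in arsenite libraries and 0.446% to 0.648% in control libraries (Poisson standard error, which covers counting only), far below the spread between replicates.

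On the scale of CPM, reads per 1000000 mapped to tested genes after TMM scaling (trimmed mean of M-values, a factor per library that centres the bulk of genes), MpACTIN7 stood at 1577, 1880 and 1567 CPM in arsenite replicates 1, 2 and 3, against 1030, 909 and 1102 CPM in control replicates 1, 2 and 3. Every arsenite library lay above every control library, arsenite replicate 2 was the highest and control replicate 2 the lowest. Such a separation in the upward direction was found for 13.8% of the 13544 tested genes, and a separation in either direction for 28.2%. The means were 1674 ± 178 CPM with arsenite and 1014 ± 97.3 CPM in controls (SD, n = 3 each). In whole thalli, more cells rich in this transcript and more transcript per cell cannot be told apart.

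The log2 fold change of MpACTIN7 was 0.72 ± 0.14 (SE), with a 95% interval from 0.39 to 1.06, and the gene passed over all tested genes (adjusted p = 0.0400). Unless another tool is named, an adjusted p here comes from edgeR by its quasi-likelihood test and the Benjamini-Hochberg method. It was 1 of 276 genes called higher, which are 2.04% of those tested, beside 2.14% called lower and 4.18% called in either direction. The interval spans changes from 1.31-fold to 2.08-fold. The call ended when any 1 of the 6 libraries was left out (adjusted p from 0.0597 to 0.159), with library totals as the only scaling (adjusted p = 0.0519) and with upper-quartile factors (adjusted p = 0.0550). It held with DESeq2 (adjusted p = 7.3e-06) and with limma's voom (adjusted p = 0.0355). DESeq2 called 1598 of the 13544 tested genes and voom 531, against 566 with edgeR. In all 17 alternatives, of which 11 ended the call, the fold change stayed positive, from 1.46-fold to 1.80-fold.

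**Figure D1:**
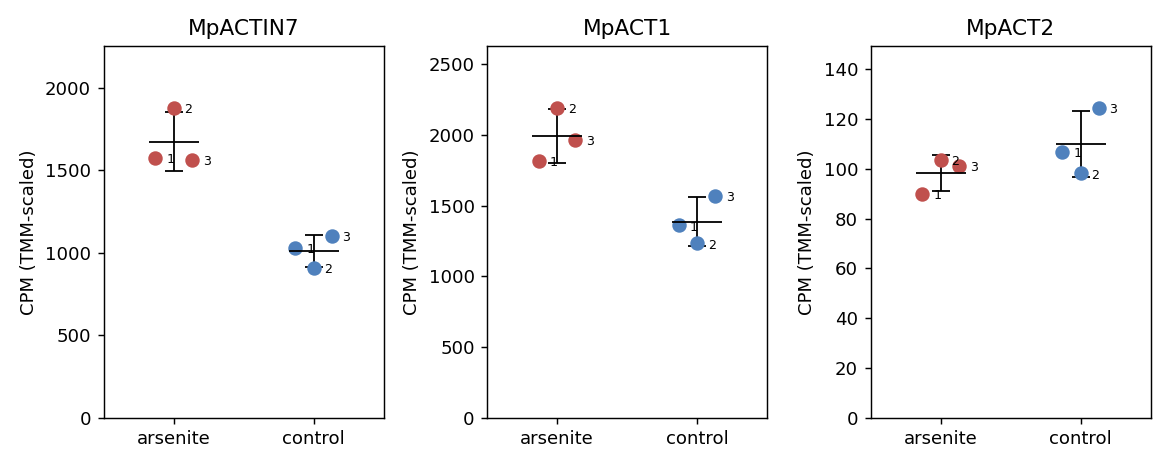
TMM-scaled CPM of the 3 actin genes in each library (points, labelled with the replicate number), with the group mean and SD (bars, n = 3). For MpACTIN7 and MpACT1 all arsenite libraries lie above all control libraries, and for MpACT2 the groups overlap.

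By read count MpACTIN7 held rank 48, 36 and 42 in arsenite replicates 1, 2 and 3, against rank 101, 114 and 92 in control replicates 1, 2 and 3. Over all 6 libraries it was number 64 by mean CPM. Read counts also grow with transcript length, and transcript lengths were not available. Per kilobase of the gene's span in the name table, introns included, it ranked 106, 85 and 124 with arsenite, against 194, 214 and 178 in controls, so it remained among the abundant transcripts on either scale and stood higher in the order with arsenite on both. Of the 63 genes with more reads than MpACTIN7, edgeR called 0 higher and 2 lower, near the 2.04% and 2.14% called higher and lower among all tested genes. At an unadjusted p under 0.05, 6 of these were higher and 9 lower, DESeq2 called 6 higher and 5 lower, and voom 2 and 2. Of all 13544 tested genes, 2860 had an unadjusted p under 0.05. DESeq2 called 856 of them higher and 742 lower, and voom 270 and 261 of all tested genes. Among the 10 genes next to it in level, of which MpWRKY11 is the 1 with a symbol, edgeR called 0, beside 4.18% of all tested genes, with log2 fold changes from -0.51 to 0.41. Unadjusted p was under 0.05 for 1 higher and 3 lower of the 10, DESeq2 called 1 lower and voom 0.

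The spread of MpACTIN7 within each group was ordinary for an abundant gene. The SD of its log2 CPM was 0.15 in arsenite libraries and 0.14 in control libraries. Among the 2232 genes with a mean of at least 100 CPM the median SD was 0.16 with arsenite and 0.15 in controls, and 46.9% and 44.6% of these genes had a smaller SD than MpACTIN7 in the arsenite and control libraries. Over all 6 libraries together its SD was 0.42, larger than in 89.3% of these genes, whose median was 0.20. Its absolute log2 fold change was larger than that of 94.0% of them. Of the 2232, 62 were called higher and 106 (4.75%) in either direction, beside 2.04% and 4.18% of all tested genes. MpACTIN7 thus had an ordinary spread between replicates of a group and varied more between the groups.

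**Figure D2:**
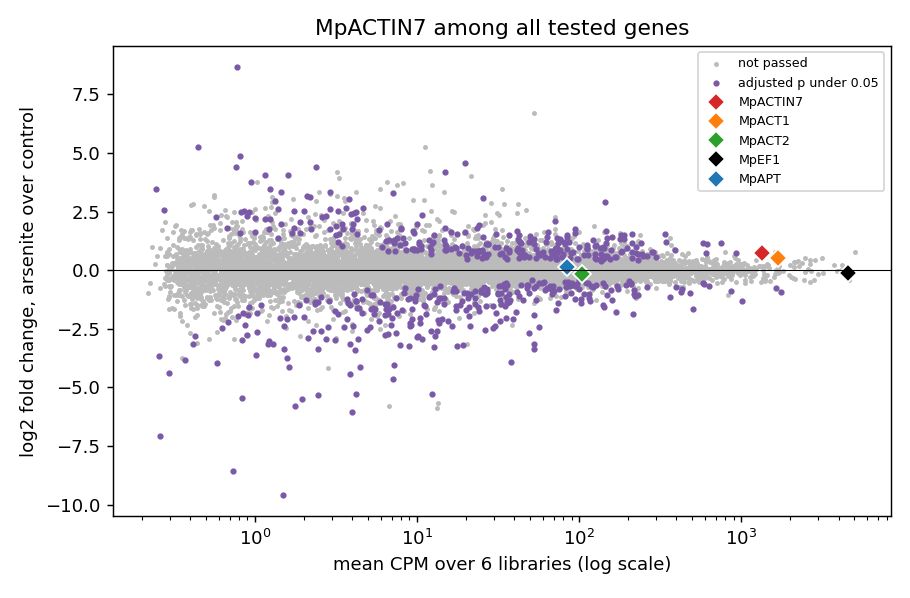
Log2 fold change of each of 13544 tested genes, arsenite over control, against its mean CPM on a log axis. MpACTIN7 (red diamond, 0.72) and MpACT1 (orange, 0.52) lie above zero at the abundant end, while MpACT2, MpEF1 and MpAPT lie near zero.

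The name table holds 3 actin genes, MpACTIN7, MpACT1 and MpACT2. MpACT1 (Mp6g10990) is the next gene beside MpACTIN7 in the table's order along the chromosome, and no annotated span overlaps that of MpACTIN7. MpACT1 had 1816, 2192 and 1967 CPM in arsenite replicates 1, 2 and 3, against 1360, 1233 and 1570 CPM in control replicates 1, 2 and 3. Its groups did not overlap, and its replicates fell in the order of those of MpACTIN7 in controls, but not with arsenite. The log2 fold change of MpACT1 was 0.52 ± 0.15 (SE, 95% interval from 0.17 to 0.87), which did not pass with edgeR (adjusted p = 0.106) and passed with DESeq2 (adjusted p = 0.00504).

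MpACT2 (Mp5g23030), on another chromosome, was far less abundant. It had 90.1, 104 and 101 CPM in arsenite replicates 1, 2 and 3, against 107, 98.3 and 125 CPM in control replicates 1, 2 and 3. The groups overlapped, with a log2 fold change of -0.16 ± 0.12 (SE, 95% interval from -0.44 to 0.12, adjusted p = 0.478). Per kilobase of gene span, mean levels over 6 libraries were 436 CPM for MpACTIN7, 447 for MpACT1 and 43.3 for MpACT2.

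The counts are whole reads, so no read was split into fractions between genes. Reads that match several actin genes may have been dropped or assigned to a single gene in counting. The handling of such reads is not given in the sources used here, and counts of these paralogs are therefore uncertain. MpACTIN7 and MpACT1 summed gave 3393, 4072 and 3534 CPM with arsenite, against 2391, 2143 and 2672 CPM in controls. With the finished counts of both genes added, the pair had a log2 fold change of 0.61 ± 0.16 (SE), which did not pass (adjusted p = 0.0826). Any reads dropped in counting are not restored by this sum. The share of MpACTIN7 in this sum was 46.5%, 46.2% and 44.3% with arsenite, against 43.1%, 42.4% and 41.2% in controls. That share was higher in each of the 3 arsenite libraries than in any control library. An exact permutation test gave a two-sided p of 0.1, the smallest that 3 against 3 allow, so it cannot decide. How often other gene pairs separate in this way was not computed, and the share rests on the same uncertain counts.

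Of 4 tested genes with a symbol that act on actin filaments or on the small GTPases that organise them, edgeR called 0. It called 4.18% of all tested genes. Of the 4, 0 had an unadjusted p under 0.05 or a call with DESeq2 or voom. Over all 13544 tested genes these counts were 2860, 1598 and 531. The motor gene MpMYOSIN_XI-2, of the class that moves organelles along filaments, averaged 323 ± 29.4 CPM with arsenite and 281 ± 42.5 CPM in controls (SD, n = 3 each). The log2 fold change was 0.20, with an SE of 0.14 (adjusted p = 0.442). MpROP, a GTPase of the plant family that steers polar growth, averaged 189 ± 13.1 CPM with arsenite and 192 ± 15.4 CPM in controls, with a log2 fold change of -0.018. Its exchange factor MpKAR, known from gemma development, and MpREN, of the class that switches such GTPases off, had log2 fold changes of 0.23 and 0.061. Across all tested genes the median log2 fold change was -0.0043.

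The other candidate references with a symbol were 18 genes: MpEF1, MpAPT, an alpha-tubulin and 2 beta-tubulins, 6 genes of protein phosphatase 2A (PP2A) and 7 of histone H3. With edgeR 0 of 18 were called higher and 0 lower, a share near the 4.18% called among all tested genes. At an unadjusted p under 0.05, 1 was lower, and neither DESeq2 nor voom called any. The counts over all 13544 tested genes were 2860 (unadjusted p), 1598 (DESeq2) and 531 (voom). Their log2 fold changes ran from -0.50 to 0.52, with 8 positive and 10 negative and a median of -0.031. Both ends of that range were rare transcripts whose values moved with single libraries, MpTUA5 at 0.23 to 1.29 and MpH3.1c at -0.85 to -0.081 with 1 library left out. A miss of the threshold does not show that a gene stayed level, and intervals are given for that reason.

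MpEF1 (Mp3g23400), a translation elongation factor and number 4 of all genes by mean CPM, had 4391, 4177 and 4628 CPM in arsenite replicates 1, 2 and 3, against 4993, 4320 and 5011 CPM in control replicates 1, 2 and 3. Its groups overlapped, and its log2 fold change was -0.12 ± 0.15 (SE, 95% interval from -0.48 to 0.24, adjusted p = 0.695). MpAPT (Mp3g25140), named for adenine phosphoribosyltransferase of purine salvage, had 90.3, 90.4 and 85.7 CPM with arsenite, against 93.9, 68.2 and 77.0 CPM in controls. Its log2 fold change was 0.16 ± 0.13 (SE, 95% interval from -0.15 to 0.46, adjusted p = 0.534), and control replicate 1 was its highest library.

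Among the tubulins, MpTUB2 averaged 232 ± 27.3 CPM with arsenite and 211 ± 21.3 CPM in controls, with a log2 fold change of 0.13. MpTUB4 and MpTUA5 were rare, at means of 9.02 and 0.705 CPM over 6 libraries. The 6 PP2A genes lay between 75.3 and 198 CPM in mean level, with log2 fold changes from -0.077 (MpPP2A_B''_FASS1) to 0.14 (MpPP2A_A). MpH3.3a had the lowest log2 fold change of the 11 other candidates at 50 CPM or more. It averaged 122 ± 10.9 CPM with arsenite and 169 ± 31.7 CPM in controls (log2 fold change -0.46 ± 0.15, adjusted p = 0.141). The 5 histone H3.1 genes, made mainly in dividing cells, summed to 25.4, 70.7 and 84.4 CPM with arsenite, against 84.5, 42.1 and 106 CPM in controls, and so varied widely within each group.

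**Figure D3:**
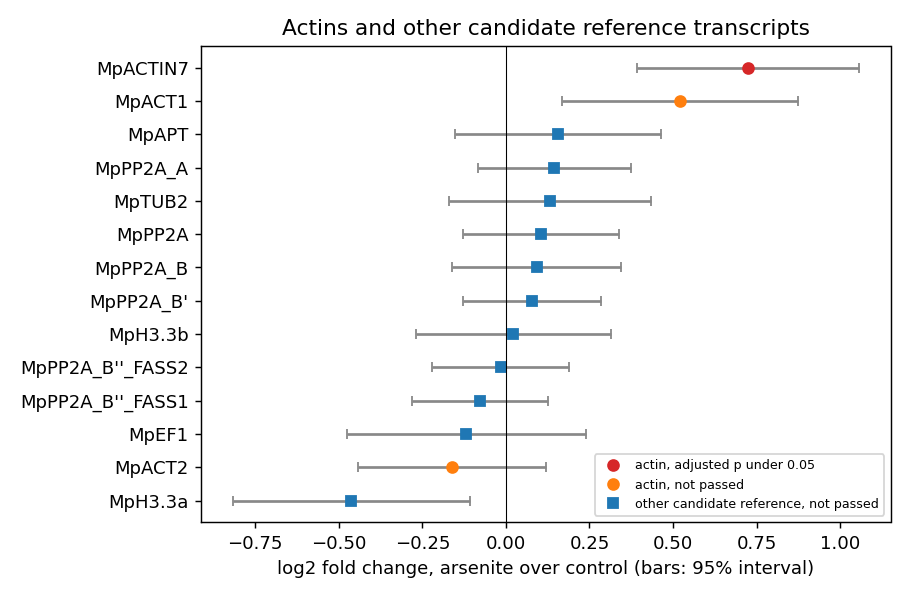
Log2 fold change, arsenite over control, with its 95% interval for the 3 actins (circles) and the 11 other candidate references with a mean of at least 50 CPM (squares). MpACTIN7 is the gene that passed, and 10 of the 11 other candidates have intervals that include zero.

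In the direct ratio of MpACTIN7 reads to reads of each of these 11 candidates, all 3 arsenite libraries exceeded all 3 control libraries for 11 of 11. The share of all tested genes with such a separation was not computed. Scaled by MpACTIN7 alone, 66.7% of all tested genes were called lower, so the separation is not read as particular to these candidates. The 11 ratios share the same MpACTIN7 counts, so they are not independent. The difference in mean log2 ratio, arsenite minus control, ran from 0.55 against MpAPT to 1.17 against MpH3.3a, and was 0.84 against MpEF1 and 0.62 against MpPP2A. In the fit across all genes MpACTIN7 kept its call when each library was scaled by the geometric mean of the 11 candidates (log2 fold change 0.72, adjusted p = 0.0376) or by MpEF1 alone (0.85, adjusted p = 0.0261). Scaled by MpAPT alone it did not pass (0.55, adjusted p = 0.159).

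The pairwise stability measure M, which averages the SD over 6 libraries of a gene's log2 ratio to every other candidate, ranked the 14 transcripts from MpPP2A with the smallest M of 0.168 to MpACTIN7 with the largest of 0.402. MpH3.3a had 0.382 and MpACT1 0.310, MpAPT 0.239, MpEF1 0.212 and MpTUB2 0.199. M favours genes that share a pattern with many others in the set, and 6 of the 14 are PP2A genes. Over all abundant genes with a symbol, the smallest SD of log2 CPM was that of MpSOD4, of the superoxide dismutase family, with 0.027. It had 1186, 1212 and 1165 CPM in arsenite replicates 1, 2 and 3, against 1227, 1207 and 1212 CPM in control replicates 1, 2 and 3, a level close to that of MpACTIN7. MpRAB8A, a membrane-traffic GTPase, the transcription factor MpBZIP15, the kinase MpMPK1 and MpIAR4A followed, with an SD of 0.034 to 0.045. These 5 genes were picked for their small SD in these libraries, so that SD is a description.

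Scaling by MpACTIN7 alone acted on every gene by the same factor per library. Relative to TMM scaling, that factor was 1.21, 1.45 and 1.21 in arsenite replicates 1, 2 and 3, against 0.793, 0.700 and 0.849 in control replicates 1, 2 and 3. All arsenite libraries were thus scaled down and all control libraries up. The median log2 fold change over tested genes was -0.73 with this scaling and -0.0043 with TMM factors. Of 13544 genes, 138 were then called higher (1.02%) and 9039 lower (66.7%), in all 67.8%, against 276 higher and 290 lower with TMM factors. Of the 276 genes called higher with TMM factors, 102 were still called higher with MpACTIN7 scaling and 174 were not called. All 290 genes called lower were still called lower. The tests with this scaling all rest on the same 6 MpACTIN7 counts, which they treat as exact.

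**Figure D4:**
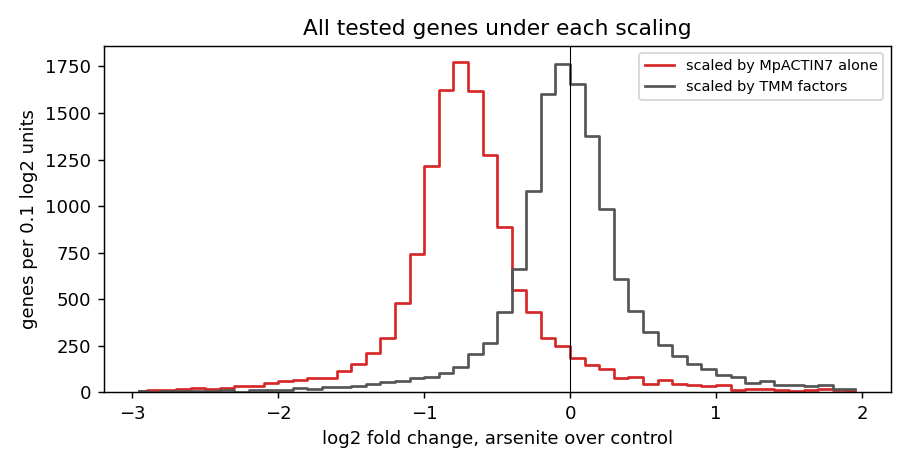
Number of tested genes per 0.1 units of log2 fold change, arsenite over control, with each library scaled by its MpACTIN7 count alone (red) or by TMM factors (grey). The red curve is centred on -0.73 and the grey curve near zero, with part of both tails beyond the axis.

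The effect on single genes was followed in 5 genes linked to arsenic or to the changes with arsenite, given as reads per 100 MpACTIN7 reads. They were chosen with their changes in these data known. Phytochelatin synthase MpPCS, which makes metal-binding peptides from glutathione, had 1.60, 1.29 and 2.08 such reads in arsenite replicates 1, 2 and 3, against 2.28, 3.32 and 2.23 in control replicates 1, 2 and 3. The groups did not overlap on this scale, whereas on the TMM scale they did, with 25.2, 24.2 and 32.5 CPM in arsenite libraries against 23.5, 30.2 and 24.5 CPM in control libraries. MpPCS was called lower relative to MpACTIN7 (log2 fold change -0.65 ± 0.24, adjusted p = 0.0371) and not called with TMM factors (0.070 ± 0.16, adjusted p = 0.839).

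The glutathione S-transferase MpGST19, which conjugates glutathione, had 29.5, 29.4 and 32.1 reads per 100 MpACTIN7 reads with arsenite, against 16.2, 18.8 and 16.7 in controls. It was higher by 1.76-fold relative to MpACTIN7 and by 2.91-fold with TMM factors, and passed on both scales (adjusted p = 0.00481 and 0.00407). The tonoplast aquaporin MpTIP2 had 8.59, 5.03 and 5.45 with arsenite, against 4.36, 4.92 and 2.97 in controls. Relative to MpACTIN7 its log2 fold change was 0.64 ± 0.26 and did not pass (adjusted p = 0.0580), while with TMM factors it was 1.37 ± 0.21 (adjusted p = 0.0219).

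For genes that fell, the ratio to MpACTIN7 enlarged the change. MpNIP, of the aquaporin class that in other plants conducts arsenite, had 1.16, 1.21 and 1.14 reads per 100 MpACTIN7 reads with arsenite, against 2.96, 3.88 and 3.38 in controls. Its log2 fold change was -1.54 relative to MpACTIN7 and -0.81 with TMM factors (adjusted p = 0.0020 and 0.0322). The phenylalanine ammonia-lyase MpPAL8, which feeds phenylpropanoid synthesis, had 45.7, 28.9 and 30.8 with arsenite, against 129, 171 and 129 in controls. Its log2 fold change was -2.02 relative to MpACTIN7 and -1.30 with TMM factors (adjusted p = 0.00285 and 0.0153). With TMM factors the call of MpNIP ended without any 1 of the 6 libraries (adjusted p from 0.0553 to 0.0993), and those of MpPAL8 and MpTIP2 ended without arsenite replicate 2 (adjusted p = 0.0881 and 0.0801) and without any 1 control (highest adjusted p = 0.0567 and 0.0699).

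**Figure D5:**
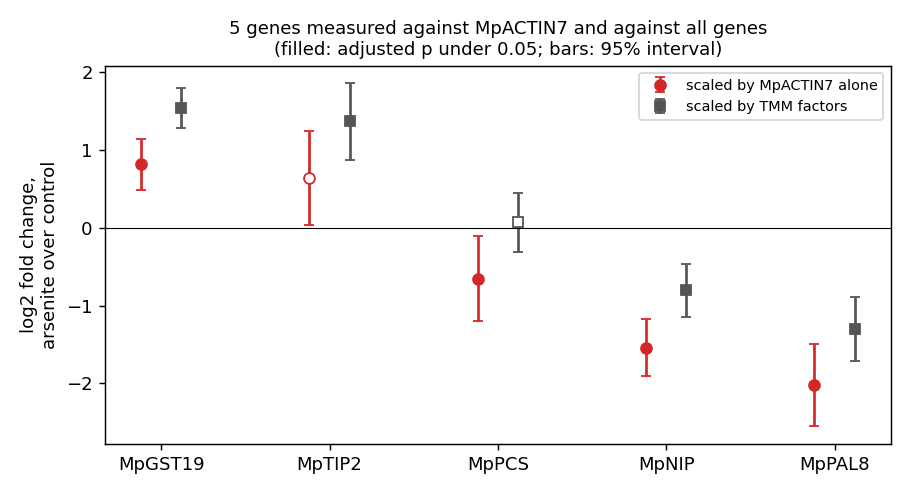
Log2 fold change, arsenite over control, with 95% intervals for 5 genes scaled by MpACTIN7 alone (red circles) and by TMM factors (grey squares). Filled symbols passed, and each gene is about 0.7 lower with MpACTIN7 scaling, which leaves MpTIP2 without a call and gives MpPCS one.

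Among named genes averaging 50 CPM or more, those whose log2 CPM was most like that of MpACTIN7 over the 6 libraries were MpNPSN1, a SNARE of membrane fusion (Pearson r = 0.990), the terpene synthase-like MpMTPSL-like (0.988), MpRAB1B, a GTPase of transport from the endoplasmic reticulum (0.983), MpACT1 (0.979) and the kinase MpMAPKKK3 (0.979). These 6 points share the difference between groups, and r is a description without a p-value. Among all tested genes, with or without a symbol and of any level, 46 had a higher r than MpACT1. In all 5 of the named genes the arsenite libraries lay above the controls without overlap, as 13.8% of all tested genes did. The choice by likeness to MpACTIN7 nearly fixed this separation, and nothing is read from it. MpMTPSL-like was the 1 of them that passed, with a log2 fold change of 1.18 ± 0.16 (adjusted p = 0.0158), a call that ended without arsenite replicate 2 (adjusted p = 0.0765), control replicate 1 (0.0672) or control replicate 2 (0.0576). In MpNPSN1, with 180, 203 and 189 CPM in arsenite replicates 1, 2 and 3 against 144, 133 and 156 CPM in control replicates 1, 2 and 3, the highest and lowest libraries were those of MpACTIN7.

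Of 7 marker genes for other cells and tissues, 6 had enough reads to test. The sperm gene MpPRM had 0 reads in 5 libraries and 1 read in control replicate 1. The 3 markers of oil body cells, MpC1HDZ, MpSYP12B and MpERF13, summed to 33.0, 41.9 and 55.0 CPM with arsenite, against 53.6, 76.0 and 75.2 CPM in controls. Most of this sum was MpC1HDZ, at means of 38.0 and 56.1 CPM, with overlapping groups and no call (adjusted p = 0.253). DESeq2 called 2 of the 3 lower and voom 1, beside 742 and 261 of all 13544 tested genes. With edgeR the rare MpSYP12B, at means of 2.07 and 5.48 CPM, was called lower (log2 fold change -1.41, adjusted p = 0.0462), as were 2.14% of all tested genes. That call ended when any 1 of the 6 libraries was left out (adjusted p from 0.0640 to 0.146). The germ-cell regulators MpRKD and MpDUO1 averaged 122 and 1.32 CPM with arsenite and 151 and 2.44 CPM in controls, without a call. Their unadjusted edgeR p was 0.0319 and 0.0284, under 0.05 as for 2860 of 13544 tested genes. For both, every arsenite library lay below every control library. A separation in either direction was found for 28.2% of all tested genes. MpRBCS, of the photosynthetic enzyme Rubisco, averaged 81.7 ± 19.0 CPM with arsenite and 59.0 ± 16.4 CPM in controls (SD, n = 3 each), with overlapping groups and no call (adjusted p = 0.333). The part of these marker values in the MpACTIN7 values was not tested.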

How the data were processed

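Poly(A) RNA was measured in 6 thallus libraries made with a plant RNA kit from Qiagen, according to the labels. Each library has its own deposited table of raw counts, whole reads for each gene, and per the file names these were made by htseq-count on Galaxy. Not given in the sources used here are the aligner, genome build, annotation and strand setting, so reads of antisense partners cannot be told apart and no coordinates are printed. Groups came from sample titles. For symbols, the numbers in locus tags of assembly MpTak2_v7.1 were matched (17671 of 18391 tags). No pair of libraries in a group was alike within sampling noise (lowest chi-square per degree of freedom 41.3).

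Counts were tested with edgeR 4.0.16 in R 4.3.3: TMM factors, default low-count filter by group, quasi-likelihood test, Benjamini-Hochberg adjustment over 13544 genes at 0.05. The SE is the log2 fold change divided by the square root of F, and log2 CPM used a prior count of 2. Alternatives were other scalings, no filter, DESeq2 1.42.0, voom (limma 3.58.1), a replicate block and leaving out each library. The procedure was tested on simulated data. Scaling by MpEF1 or MpAPT alone and the summed actin pair were added after seeing the data.

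MpACTIN7 and all lists were chosen with earlier results of these data known. Candidate references of planned families without an unambiguous symbol were not analysed here. Named were all actins, called list members and the most abundant ones, the 5 genes above and 5 below MpACTIN7 in level, the 5 most correlated with it (mean of at least 50 CPM), the 5 of smallest SD (at least 100 CPM) and 5 targets; further list members were named after their values were seen.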

Additional observations from a re-analysis of the deposited data

How the results depend on the processing

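The number of genes called was 566 and stayed within 1.5 times that with other scalings by many genes, without the low-count filter and with voom. It was 1598 with DESeq2, 364 with the replicate block, 9177 with MpACTIN7 as the only scaling and 39 (arsenite replicate 2) to 461 (arsenite replicate 3) with 1 library left out, and leaving out arsenite replicate 1 (338) or control replicate 1 (103), 2 (176) or 3 (148) also moved it by over 1.5 times. The split of calls was 48.8% higher with TMM factors, 1.5% with MpACTIN7, 64.3% with MpEF1 and 22.8% with MpAPT as the only scaling. Among the 25 actins, regulators and candidate references, 1 was called, against 2 with DESeq2 and 18 with MpACTIN7 scaling. The count was 0 with upper-quartile factors, with library totals, with the replicate block and without any 1 library. The main fit called 4.18% of all tested genes. MpACTIN7 scaling called 67.8% of them, so the 18 are not read as a result about these genes.

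MpACTIN7 kept its direction in all 17 alternatives. Its log2 fold change lost its call at 0.69 with upper-quartile factors, 0.70 with library totals, 0.55 with MpAPT scaling, 0.61 with MpACT1 reads added, and at 0.63 to 0.79 with 1 library left out. With the replicate block it was 0.72 (adjusted p = 0.121). The labels give no shared source for same-numbered samples. Deviations of same-numbered libraries correlated at 0.0084, -0.11 and 0.19, and not every library correlated best with its own number. The highest value was 0.41, between arsenite replicate 1 and control replicate 2. With 3 libraries per group these values cannot settle whether the numbers pair the samples. By reads per kilobase of gene span its rank was 148 of 13253.

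With 1 library left out, log2 fold changes ran from -0.063 to 0.19 for MpPCS, from -1.46 to -1.17 for MpPAL8, from 1.16 to 1.51 for MpTIP2 and from -0.93 to -0.73 for MpNIP. With 1 library left out the sign also turned in MpROP (-0.068 to 0.048), MpKAR (-0.022 to 0.45), MpREN (-0.069 to 0.16), MpPP2A_B''_FASS2 (-0.042 to 0.019), MpH3.1b (-0.31 to 0.34), MpH3.1d (-0.78 to 0.054), MpH3.1e (-0.61 to 0.10) and MpH3.3b (-0.039 to 0.12). MpH3.3b also turned to -0.010 with upper-quartile factors and -0.0025 with library totals. Scaling by MpACTIN7 alone lowers every gene by construction. It gave 0.64 for MpTIP2 without a call. Of all 13544 tested genes, 5657 had a positive value with TMM factors and a negative one with this scaling. Among the targets, other actins, regulators, candidate references and 5 most correlated genes, 16 did so: MpPCS (-0.65), MpACT1 (-0.20), MpMYOSIN_XI-2 (-0.53), MpKAR (-0.46), MpREN (-0.66), MpAPT (-0.56), MpTUA5 (-0.14), MpTUB2 (-0.60), MpPP2A (-0.62), MpPP2A_A (-0.58), MpPP2A_B (-0.64), MpPP2A_B' (-0.64), MpH3.3b (-0.71), MpNPSN1 (-0.32), MpRAB1B (-0.49) and MpMAPKKK3 (-0.41). The cause of changed calls was not tested.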
